A study of Mus musculus with 6 samples.

Results

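The 10 genes described here encode proteins of the tight junction: the claudins Cldn1, Cldn3, Cldn4, Cldn5, Cldn6, Cldn7, Cldn9 and Cldn12, occludin (Ocln) and the scaffold protein ZO-1 (Tjp1). They were selected by gene symbol, with results of the same comparison already known, and each was measured by 1 probe set. They are 10 of 19938 genes with a probe set of their own on the Affymetrix Mouse Gene 1.0 ST array. Because the choice was made with the comparison in view, their values are given as a description, with no p-value.

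Tight junctions seal the space between neighbouring epithelial or endothelial cells near their apical side. Claudins span the membrane and join their partners on the next cell, and the mixture of claudins in a cell sets which ions and molecules can pass between cells. Occludin lies in the same strands, and ZO-1 ties the strands to the actin cytoskeleton on the inner side of the membrane. Cldn6 is known from mouse embryos and ES cells as an early marker of epithelial fate, and Cldn4 and Cldn7 are claudins of many simple epithelia. Cldn6 and Cldn9 are close relatives that lie side by side on chromosome 17, and Cldn3 and Cldn4 are neighbours on chromosome 5.

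The samples were female mouse embryonic stem (ES) cells of a mixed C57BL/129 background, which had been derived and kept in 2i, a pair of kinase inhibitors, with LIF in N2B27 medium on laminin. All 6 carried ERT2-Cre, a Cre recombinase that works only once 4-hydroxytamoxifen (4-OHT) is present, and all 6 had received 80 nM 4-OHT for 24 h. In 3 samples (lox/lox) both alleles of Scc1 carried lox sites and could be cut out by Cre, and in 3 samples (wt/wt) both were wild type. Scc1 is the earlier name of Rad21, a core subunit of the cohesin ring, and the comparison asks how the transcriptome differs once cohesin has been depleted. The sources used here do not give the promoter that drives the Cre or the number of ES cell lines, and samples without 4-OHT were not analysed here. Effects of Rad21 loss, of excision as such and of differences between the lines cannot be told apart.

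Rad21 stood at 10.02 ± 0.03 on the wt/wt arrays and at 6.09 ± 0.04 on the lox/lox arrays (log2 intensity, mean ± SD, n = 3), which is 15.2-fold lower. Array medians ran from 4.85 to 4.94, and correlations between arrays were at least 0.9892. Within the genotypes, wt/wt replicate 2 and lox/lox replicate 3 stood apart from the others on the leading component of the deviations, which held 41.2% of their variance. The array farthest to the other side was wt/wt replicate 1. Calls that ended without wt/wt replicate 2 and lox/lox replicate 3 together are named beside the result. All 12 ES cell markers were above the array median on all 6 arrays. Of all genes, 1228 passed the test between genotypes (limma, at a Benjamini-Hochberg adjusted p under 0.05), 508 higher and 720 lower in lox/lox. Such genes are called higher or lower below. The test measures the spread between 3 replicate samples per genotype, and the sources used here do not say whether these came from separate lines. In RNA of whole cultures, a larger share of cells with a transcript and more transcript per cell cannot be told apart.

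Cldn6 and Cldn7 were called higher in lox/lox cells, and none of the 10 genes was called lower. The other 8 did not pass. These 2 of 10 stand beside 6.16% of all genes called in either direction, 2.55% called higher and 3.61% called lower, and nothing is read from the count because the genes were selected on this comparison. Cldn6 differed by 1.66 on the log2 scale and Cldn7 by 0.39, and the remaining differences lay between -0.25 (Tjp1) and 0.21 (Cldn12). The arrays of the genotypes did not overlap for 3 of the 10 genes, Cldn6, Cldn7 and Cldn12, beside 22.8% of all genes, and in all 3 the lox/lox arrays were the higher ones. The median difference of the 10 genes was 0.04, and that of all genes was -0.01. Differences were above 0 for 8 genes and below 0 for 2 (Cldn3 and Tjp1), but the difference of Cldn9 turned below 0 after quantile normalization, median centring or cyclic loess and that of Ocln after median centring. Left-out arrays or array weights also turned the sign of Cldn1, Cldn4, Cldn9 and Ocln, each of which lay within 0.05 of 0.

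**Figure D1:**
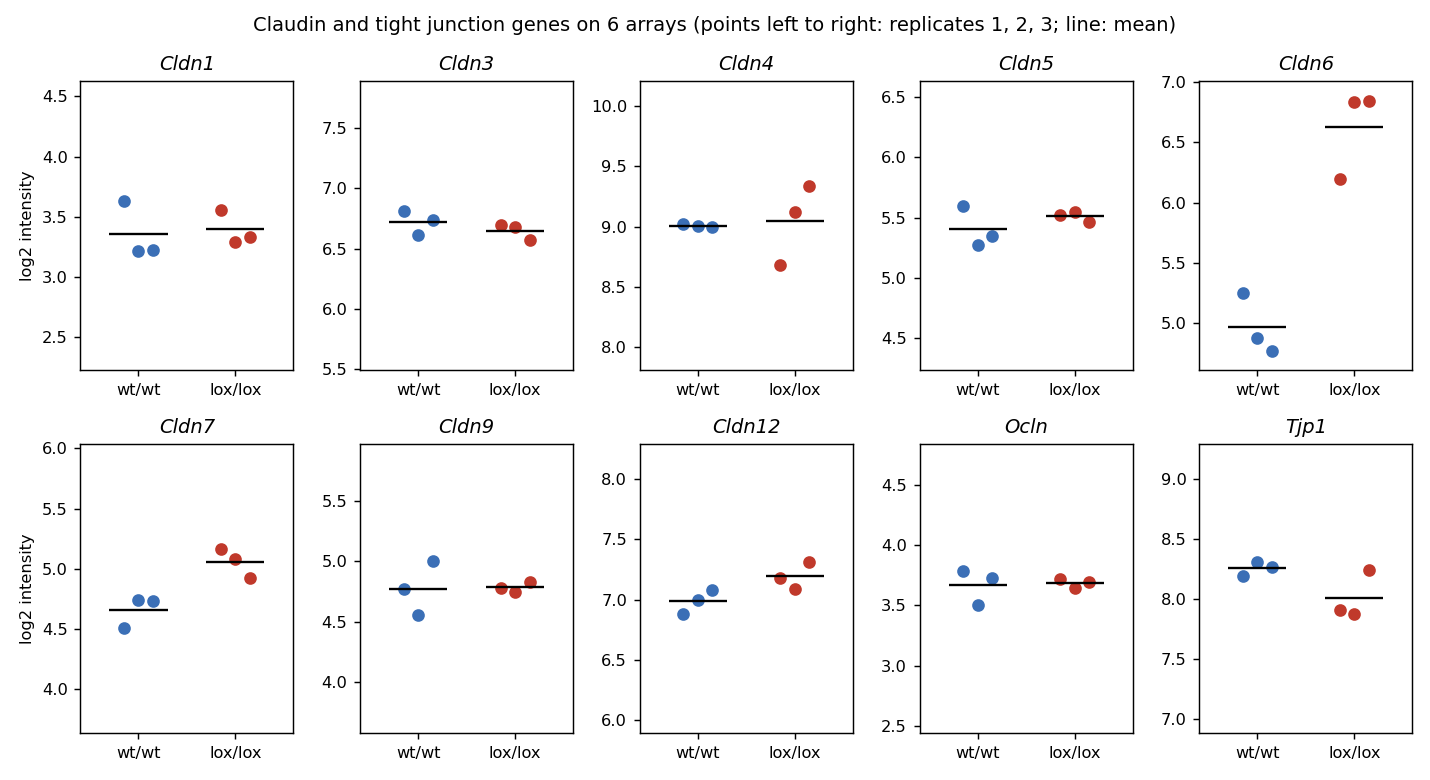
Log2 intensity of each of the 10 genes on the 6 arrays, with 3 wt/wt arrays in blue, 3 lox/lox arrays in red and a line at each mean; every panel spans the same number of log2 units. The lox/lox arrays of Cldn6 lie between 6.20 and 6.85, above the wt/wt arrays at 4.77 to 5.25, while in most other panels the genotypes overlap.

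Cldn6 (probe set 10442327) carried by far the largest difference of the 10 genes. The wt/wt replicates 1 to 3 read 5.25, 4.88 and 4.77, and the lox/lox replicates 6.20, 6.83 and 6.85 (log2 intensity). Every lox/lox array lay above every wt/wt array, and the lowest lox/lox value was that of replicate 1. Means were 4.97 ± 0.25 in wt/wt and 6.63 ± 0.37 in lox/lox (SD, n = 3), a 3.16-fold higher level. The log2 difference of 1.66 had a standard error of 0.18 and a 95% interval from 1.27 to 2.05. The wt/wt level was close to the array median, where background raises the reading, so that a fold change there can understate the change of the transcript. Cldn6 was called in all 6 fits without 1 array, with differences from 1.55 to 1.87, and at 1.504 without wt/wt replicate 2 and lox/lox replicate 3 together.

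Cldn7 (probe set 10377673), a claudin of lateral membranes in many epithelia, was the other called gene, with a much smaller difference. It read 4.51, 4.74 and 4.73 on the wt/wt arrays and 5.17, 5.08 and 4.92 on the lox/lox arrays. The genotypes did not overlap, but the gap between the highest wt/wt and the lowest lox/lox array was narrow. Means of 4.66 ± 0.13 and 5.06 ± 0.12 (SD, n = 3) differed by 0.39 (SE 0.10, 95% interval 0.18 to 0.61), which is 1.31-fold. The level was above the array median on 3 of the 6 arrays. When single arrays were left out, 5 of the 6 fits no longer called Cldn7, and the call remained without lox/lox replicate 3 (0.46) and without the 2 arrays that stood apart (0.50), and the 6 differences ran from 0.32 to 0.46. The call was also lost after quantile normalization or cyclic loess.

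The stretch of 250 bases before the start site is shown for the called genes Cldn6 and Cldn7, and for Cldn4, a neighbour in function whose level did not pass the test. Sequences are from RefSeq promoters on GRCm38.p6, 5′ to 3′ on the strand of the gene, and Cldn7 has 2 start sites in that table. Capitals mark matches, on either strand, to an E-box bound by Snail and Zeb factors (CAGGTG) and to the GC box bound by Sp factors (GGGCGG, printed as CCGCCC where it lies on the other strand). The Cldn6 window is chr17:23679115-23679364 (plus strand), those of Cldn7 are chr11:69964529-69964778 and chr11:69965171-69965420 (plus strand), and that of Cldn4 is chr5:134946935-134947184 (minus strand).
Cldn6: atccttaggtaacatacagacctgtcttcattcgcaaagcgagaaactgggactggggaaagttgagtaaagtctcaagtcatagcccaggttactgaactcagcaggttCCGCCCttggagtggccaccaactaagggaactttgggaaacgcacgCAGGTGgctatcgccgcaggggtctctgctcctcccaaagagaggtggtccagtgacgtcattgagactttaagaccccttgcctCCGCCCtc
Cldn7, upstream start: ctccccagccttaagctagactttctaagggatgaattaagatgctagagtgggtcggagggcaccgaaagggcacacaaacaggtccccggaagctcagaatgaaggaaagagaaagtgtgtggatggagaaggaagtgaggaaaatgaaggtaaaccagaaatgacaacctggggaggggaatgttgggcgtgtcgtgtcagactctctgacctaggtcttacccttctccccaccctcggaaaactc
Cldn7, downstream start: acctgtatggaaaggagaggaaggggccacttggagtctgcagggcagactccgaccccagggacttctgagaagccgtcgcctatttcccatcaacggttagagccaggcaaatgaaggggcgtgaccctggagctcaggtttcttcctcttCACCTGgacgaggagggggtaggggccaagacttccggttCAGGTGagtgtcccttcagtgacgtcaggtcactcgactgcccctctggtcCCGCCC
Cldn4: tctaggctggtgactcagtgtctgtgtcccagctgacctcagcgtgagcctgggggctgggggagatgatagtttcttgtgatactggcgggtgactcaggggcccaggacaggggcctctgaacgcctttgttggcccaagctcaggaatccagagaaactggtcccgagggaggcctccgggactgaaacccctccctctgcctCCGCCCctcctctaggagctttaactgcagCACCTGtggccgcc

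The Cldn6 window held CAGGTG at 93 to 88 bases before the start and the GC box at 2 places on the other strand, nearest at 8 to 3 bases. The upstream Cldn7 window held neither motif, and the downstream one held CAGGTG at 97 to 92 (other strand) and at 57 to 52 bases and a GC box at 6 to 1. In Cldn4 the E-box lay at 14 to 9 bases and the GC box at 44 to 39, both on the other strand. Across the 13 windows of the 9 genes with an entry, CAGGTG occurred in 4 windows of 4 genes (Cldn4, Cldn6, Cldn7 and Ocln) and GGGCGG in 11 windows, at least 1 for each of the 9 genes. The GC boxes of the overlapping Cldn12 windows that start at chr5:5514790 and chr5:5514850 are the same site. Among all 32851 promoter windows of the same length, 17.2% held CAGGTG and 32.7% held GGGCGG. The median GC content of all windows was 52.4%. Except for the upstream Cldn7 window (51.2%) and a Cldn12 window (42.0%), the windows of the 9 genes lay above that, up to 69.2% (Ocln). The E-box of Myc (CACGTG) and the TATA motif TATAAA were in 0 of the 13 windows, beside 6.02% and 12.4% of all windows. A called gene (Cldn6) and genes that did not pass (Cldn4, Ocln) thus shared both motifs. Matches describe the letters only.

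Cldn12 (probe set 10527965), a claudin that lacks the PDZ-binding end by which most others hold ZO-1, was the third gene whose genotypes did not overlap. Its wt/wt arrays read 6.88, 7.00 and 7.08, and its lox/lox arrays 7.18, 7.09 and 7.31. The highest wt/wt and the lowest lox/lox array were nearly equal. The difference of 0.21 (SE 0.09, 95% interval 0.01 to 0.41) did not pass, and it stayed between 0.15 and 0.26 in the fits without 1 array.

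Cldn4 (probe set 10534395), an epithelial claudin, was steady among controls and scattered among lox/lox arrays. It read 9.02, 9.002 and 8.996 in wt/wt and 8.68, 9.12 and 9.34 in lox/lox. The lox/lox arrays lay on both sides of the controls, with a range of 0.66 against 0.02. The means of 9.01 ± 0.01 and 9.05 ± 0.34 differed by 0.04 (95% interval -0.27 to 0.36), and the sign turned without lox/lox replicate 3, at -0.10, without wt/wt replicate 2 and lox/lox replicate 3 together, and with array weights. Its neighbour Cldn3 (probe set 10526241), another claudin of simple epithelia, overlapped between genotypes at 6.81, 6.62 and 6.74 in wt/wt and 6.70, 6.68 and 6.57 in lox/lox, a difference of -0.07 (95% interval -0.26 to 0.11).

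Cldn9 (probe set 10448312), the close relative beside Cldn6, gave about the same reading in both genotypes. It read 4.77, 4.55 and 5.0 in wt/wt and 4.78, 4.75 and 4.83 in lox/lox. All lox/lox arrays lay inside the wt/wt range, and 1 of the 6 arrays was above its median. The difference was 0.01 with a 95% interval from -0.23 to 0.25. At this level, mostly below the array median, it says little about the transcript of Cldn9. Whether probes of either gene also bind the transcript of the other was not tested.

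Cldn5 (probe set 10434229), the main claudin of blood vessel endothelium, read 5.59, 5.27 and 5.34 in wt/wt and 5.52, 5.55 and 5.46 in lox/lox. The genotypes overlapped, and the difference was 0.11 (95% interval -0.10 to 0.32). Cldn1 (probe set 10438769), which seals the skin barrier, read 3.64, 3.22 and 3.22 in wt/wt and 3.56, 3.30 and 3.34 in lox/lox. It was below the array median on all 6 arrays, and a difference of 0.04 (95% interval -0.24 to 0.31) there says little about the transcript.

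Tjp1 (probe set 10564343), the scaffold gene, had the lowest difference of the 10. It read 8.19, 8.30 and 8.27 in wt/wt and 7.91, 7.87 and 8.24 in lox/lox. The lox/lox replicates 1 and 2 were below all controls, and replicate 3 was among them. The difference of -0.25 (SE 0.10, 95% interval -0.48 to -0.01) did not pass with all arrays. Tjp1 was called lower without lox/lox replicate 3, at -0.36, and in no other fit, the one without wt/wt replicate 2 and lox/lox replicate 3 (-0.34) included. Ocln (probe set 10411668) was below the array median on all 6 arrays, between 3.50 and 3.78, and its difference was 0.02 (95% interval -0.18 to 0.22).

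None of the 19 other claudins on the array passed in limma, beside 6.16% of all genes, and none had an unadjusted p under 0.05. Their differences ran from -0.18 (Cldn24, adjusted p = 0.463 in limma) to 0.16 (Cldn14, a claudin of the inner ear and kidney, adjusted p = 0.525), with a median of -0.002. For none of them were the arrays of the genotypes apart, beside 22.8% of all genes. Most of these claudins gave little signal: 15 of the 19 were below the array median on all 6 arrays, beside 7800 of all 19938 genes. Another 2 (Cldn14 and Cldn19) were above it on all 6. Among the 10 genes selected, 5 were above it on all arrays and 2 below it on all. At such levels a change of a rare transcript would be hard to see on these arrays.

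**Figure D2:**
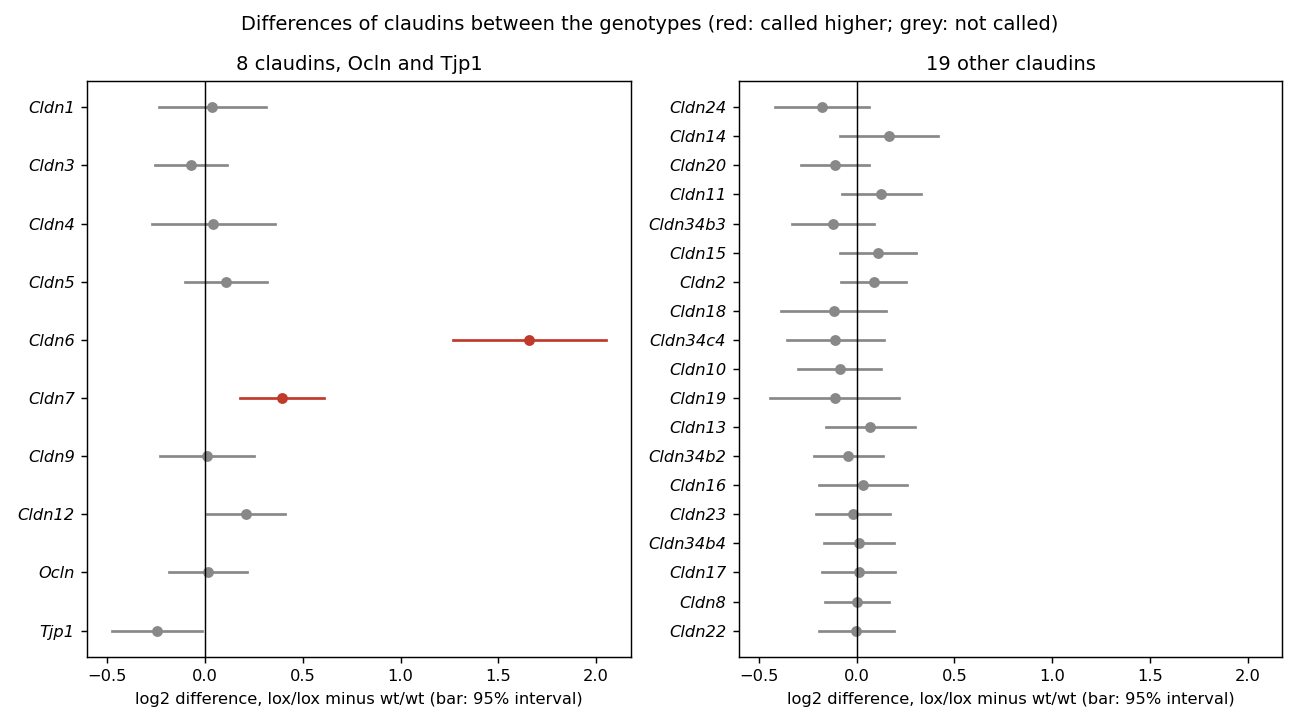
Log2 difference between genotypes (lox/lox minus wt/wt, point) with its 95% interval (bar) for the 8 claudins, Ocln and Tjp1 on the left and 19 other claudins on the right. Cldn6 at 1.66 and Cldn7 at 0.39 (red) were called higher, and all 19 other claudins lie between -0.18 and 0.16.

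The tight junction holds other proteins beside claudins, and 40 of 42 listed genes for them were measured, 13 of the membrane and 27 of the scaffold and of cell polarity. Of the 40, 1 was higher and 3 were lower (limma), which is read beside the 2.55% and 3.61% of all genes. An unadjusted p under 0.05 was found for 11. The share of all genes at that unadjusted level was not counted, so nothing is read from such counts in any list. Lsr, which encodes angulin-1 of the corners where 3 cells meet, rose by 0.53 (SE 0.08, adjusted p = 0.0029), from 5.24 to 5.35 on the wt/wt arrays to 5.74 to 5.88 on the lox/lox arrays. Cxadr, a junctional adhesion receptor that coxsackie and adenoviruses use, fell by 0.55 (SE 0.09, adjusted p = 0.00586). Both were called in all 6 fits without 1 array.

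The other called genes belong to the scaffold and polarity list. Llgl2, a basolateral polarity protein, fell by 0.54 (SE 0.11, adjusted p = 0.0161), and Mpp5 (Pals1), an apical scaffold of the Crumbs complex, fell by 0.45 (SE 0.10, adjusted p = 0.0262). Each lost its call without wt/wt replicate 2, wt/wt replicate 3, lox/lox replicate 1 or lox/lox replicate 2, with adjusted p-values of up to 0.0735 for Llgl2 and 0.115 for Mpp5 in limma. Mpp5 was also not called without wt/wt replicate 2 and lox/lox replicate 3 together (adjusted p = 0.0708). With either of the wt/wt replicates 2 and 3, or lox/lox replicate 2, left out, the called genes among the 40 were Lsr and Cxadr. The median of the 40 differences was -0.03, beside -0.01 for all genes.

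Adherens junctions, built from cadherins and catenins, lie just below tight junctions. The list of 16 genes set beside them also held nectins, Vcl, Afdn, Plekha7 and Epcam. Of the 16 genes 2 rose and 1 fell, beside 2.55% and 3.61% of all genes. Cdh3 (P-cadherin) read 5.49, 5.40 and 4.95 in wt/wt and 6.24, 6.37 and 6.74 in lox/lox. It rose by 1.17 (SE 0.16, adjusted p = 0.00177 in limma). Epcam, an epithelial adhesion protein that binds Cldn7, rose by 0.79 (SE 0.12, adjusted p = 0.00324), and Ctnna1 (alpha-catenin) fell by 0.44 (SE 0.08, adjusted p = 0.00876). All 3 were called in every fit without 1 array, with adjusted p-values of at most 0.0493. The ES cell cadherin Cdh1, outside the rule for named genes and given after its value was seen, differed by 0.19 (adjusted p = 0.296) and was not called.

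**Figure D3:**
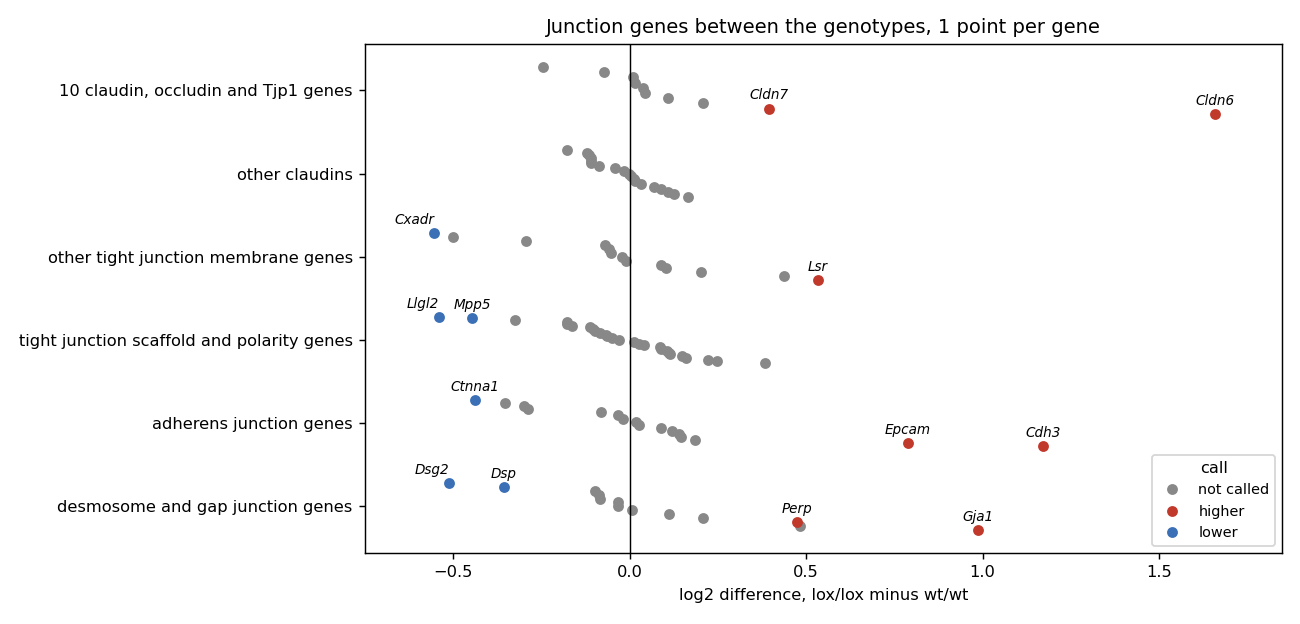
Log2 difference between genotypes (lox/lox minus wt/wt), 1 point per gene, for the 10 genes and for 5 lists of other junction genes; red points were called higher, blue points lower and grey points were not called. Called genes lie on both sides of 0 in most lists, from -0.55 (Cxadr) to 1.66 (Cldn6), and no other claudin is among them.

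Markers of other cell types that ES cultures can hold were set beside the claudins. Above the array median on all 6 arrays were 7 of 10 trophectoderm, 2 of 10 primitive endoderm, 3 of 10 endothelial and 5 of 9 fibroblast markers. Whether their signal came from ES cells or from such other cells was not tested. The counts of calls in these lists are read beside the 2.55% of all genes called higher and 3.61% called lower. Of 10 trophectoderm markers 0 rose and 3 fell, Tfap2c by 0.87, Gata3 by 0.62 and Tead4 by 0.59 (limma adjusted p = 0.00991, 0.017 and 0.00159). Cdx2 (0.18), Hand1 (0.10), Krt7 (0.08) and Krt18 (0.04), named after their values were seen, lay above 0 without passing. The median of the 10 differences was -0.05. The summed log2 level of this list, the 3 called genes included, ran from 58.62 to 59.41 in wt/wt and from 56.49 to 57.43 in lox/lox. Elf5 and Eomes were below the array median on every array. Of 10 primitive endoderm markers Lama1 alone passed, lower by 0.36 (adjusted p = 0.0319), with sums from 45.95 to 49.02 in wt/wt and 46.51 to 47.73 in lox/lox and with Sox17, Gata6, Pdgfra, Dab2, Afp and Ttr below the median on every array. Endothelial markers, read beside Cldn5, gave 1 higher of 10, Cdh5 by 0.34 (adjusted p = 0.0228) at a level below the median on every array, and sums from 51.29 to 51.63 in wt/wt and 50.94 to 51.52 in lox/lox. With Cdh5, 4 of these 10 had an unadjusted p under 0.05, and Kdr (-0.31), Vwf (-0.28) and Pecam1 (-0.27), named after their values were seen, differed the other way without passing (adjusted p = 0.183, 0.0943 and 0.17). No fibroblast marker of 9 passed in limma, 2 had an unadjusted p under 0.05 (Vim, 0.24, and Dcn, 0.21), and sums were 47.68 to 49.48 in wt/wt and 48.85 to 49.78 in lox/lox. Calls were lost without wt/wt replicate 2, wt/wt replicate 3 or lox/lox replicate 2 for Gata3 (adjusted p of up to 0.075), without these or lox/lox replicate 3 for Cdh5 (up to 0.101), and without any array but lox/lox replicate 3 for Lama1 (up to 0.142). Without wt/wt replicate 2 and lox/lox replicate 3 together, Gata3 and Cdh5 were not called (adjusted p = 0.0909 and 0.113). Of the 12 ES cell markers 2 rose and 4 fell, beside the same shares of all genes. Their median difference was -0.18, with 3 differences above 0 and 9 below. The arrays of the genotypes did not overlap for 11 of the 12, beside 22.8% of all genes. The lox/lox arrays were the higher ones in 3 of these and the wt/wt arrays in 8. Lin28a rose by 1.32, and Fgf4, Nanog and Sox2 fell by 0.57, 0.55 and 0.48 (adjusted p = 0.000157, 0.00253, 0.00473 and 0.0036). The part of these markers in the claudin differences was not tested.

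Cohesin shapes chromatin loops, and the 5 measured genes on each side of the claudin pairs were examined. Of these 20 genes 0 were called in limma, beside 6.16% of all genes, and 1 had an unadjusted p under 0.05 (Wbscr25, adjusted p = 0.277). Differences ran from -0.09 to 0.18, with a median of 0.03. Beside Cldn6 and Cldn9 on chromosome 17, the nearest genes Tnfrsf12a and 1520401A03Rik differed by 0.01 (adjusted p = 0.981) and 0.13 (adjusted p = 0.45). Beside Cldn4 and Cldn3 on chromosome 5, Mettl27 differed by 0.13 (adjusted p = 0.58) and Wbscr25 by 0.18. In the stretch of 12 measured genes around it, Cldn6 was the 1 called gene. With so few genes, a count of 0 called neighbours is near the share of all genes, and nothing is read from it. A part of chromatin loops was not tested. The 10 genes around Cldn7 on chromosome 11, added after values were seen, included no called gene, and the nearest, Slc2a4 and Elp5, differed by 0.16 (adjusted p = 0.369) and -0.10 (adjusted p = 0.613).

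**Figure D4:**
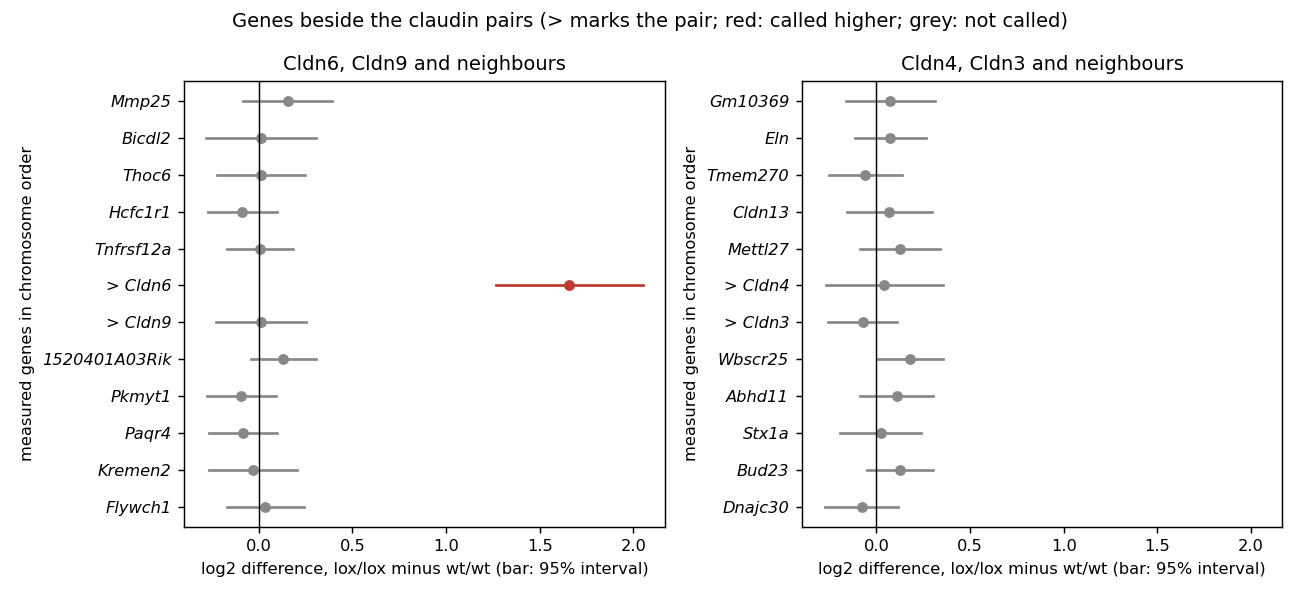
Log2 difference between genotypes (lox/lox minus wt/wt, point) with its 95% interval (bar) for the claudin pairs and the 5 measured genes on each side, in chromosome order. Cldn6 lies at 1.66, and all 20 neighbours lie between -0.09 and 0.18.

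The genes whose levels followed Cldn6 most closely over the 6 arrays were Slc23a1, a vitamin C transporter, Crmp1, a cytoskeletal protein of neurons, and Bag3, a co-chaperone. Their Pearson correlations with Cldn6 were 0.9993, 0.9969 and 0.9947 (n = 6). These describe 2 groups of 3 arrays and come with no p-value, since a genotype difference alone gives a high value. Each of the 3 was called higher, by 0.53, 0.74 and 0.86. As in Cldn6, lox/lox replicate 1 was the lowest lox/lox array and wt/wt replicate 1 the highest wt/wt array. Genes chosen for a high correlation with Cldn6 share its direction and much of its array order by that choice. Neither is therefore a further result. Slc23a1 lay below the array median on all 6 arrays.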

How the data were processed

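The table deposited by the authors holds log2 intensities of 35556 probe sets on each of 6 arrays, made by RMA with affy, per the submitters' processing notes. The sources used here do not give their versions, options or genome build. RMA sets the arrays to a like distribution, so a change of total RNA per cell cannot be seen. By the platform annotation, 21789 probe sets had 1 gene symbol, 1621 several and 12146 none here. A gene was represented by its probe set with the highest mean (999 genes had more than 1), which left 19938 genes, with no filter on dim genes. The number of arrays, 3 per genotype, limits the precision. Chromosomal order came from the RefSeq gene table of GRCm38.p6.

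Genotypes, taken from the labels, were compared in limma 3.58.1 (R 4.3.3) by lmFit and eBayes with no covariate (lox/lox minus wt/wt, Benjamini-Hochberg over all genes, called at an adjusted p under 0.05). Intervals are 95% intervals of the limma fit. The fit was tested on simulated data for lox/lox against wt/wt, in which 200 of the 19938 genes were changed. It recovered 90% of genes with a log2 change of 0.5 and 100% of those with 1, and 3.94% of calls were unchanged genes. The simulated noise was normal and independent between genes, without the shared deviations seen on the real arrays. These rates therefore check the fit and are not the rates of the real comparison.

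The genes and lists were chosen with earlier results of these data known. Named were the 10 genes, up to 4 called genes with the smallest p of each list (or 2 where none was called), called neighbours and the nearest gene on each side of the claudin pairs, 3 genes most like Cldn6, and Rad21; exceptions are marked. The lists were other claudins, other tight junction membrane genes, scaffold and polarity genes, adherens junction genes, desmosome and gap junction genes, epithelial and mesenchymal regulators, and markers of 5 cell types. Some listed genes are not reported here. Alternatives were quantile normalization, median centring, cyclic loess, a filter on dim genes (11400 left), array weights, the mean over a gene's probe sets, a trended and robust eBayes prior, a replicate block, each array left out, the 2 arrays that stand apart left out, and an adjusted p under 0.01.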

Additional observations from a re-analysis of the deposited data

How the results depend on the processing

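Cldn6 was called under every alternative run, with log2 differences from 1.504 to 1.87. The count of the 10 genes called was 2 with all arrays and 1 (Cldn6 alone) after quantile normalization, cyclic loess, with the replicate block, at an adjusted p under 0.01 and without dim genes, where Cldn7 was not tested. Leaving out 1 array gave 1 to 3 called genes: 1 without any wt/wt array or lox/lox replicate 1 or 2, and 3 (Cldn6, Cldn7, and Tjp1 lower) without lox/lox replicate 3. The count of other tight junction genes called was 4, rose to 8 with array weights and dropped to 2 at an adjusted p under 0.01, and ran from 2 to 6 without 1 array. Other claudins and neighbours of the claudin pairs had 0 calls under all 16 alternatives. The labels do not say whether equal replicate numbers share a culture or day. Deviations of equal numbers correlated at 0.101, -0.228 and -0.103, and 1 of 6 arrays correlated best with its own number. Deviations from means of 3 arrays are too few to settle whether the samples were paired. The replicate block gave 1086 calls over all genes against 1228, 6 other tight junction genes, and 0 other claudins and neighbours. With it Cdh5, Lama1 and Dsp were not called (adjusted p = 0.0576, 0.0592 and 0.0615). The 146 alternative differences of the 10 genes moved by less than 1 SD between replicates. That limit tests little. The replicate block, the changed prior, the filter on dim genes and the mean over probe sets leave these differences as they were. Leaving out 1 of 3 arrays of a genotype cannot move a difference by that much. For Rad21 and the genes that the naming rule took from the lists, 388 alternative differences kept direction and side of the threshold. A further 42 lost the call, 1 gained it (Vim, eBayes with trend and robust), and 0 changed sign. Genes named after their values were seen, such as Zeb1 and Grhl2, are not in these counts. Calls over all genes ran from 626 without lox/lox replicate 2 to 1717 with array weights. Signal over background limits Cldn1, Ocln and most other claudins, which lay below the array median. It also limits Cldn9, which was above the median on 1 of the 6 arrays. The cause of these shifts was not tested.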

Other observations

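Desmosomes anchor intermediate filaments at cell contacts, and gap junctions join the cytoplasm of neighbouring cells. Of 13 measured genes of these structures 2 rose and 2 fell (limma), beside 2.55% and 3.61% of all genes. Gja1, the gap junction protein connexin 43, rose by 0.99 (SE 0.11, adjusted p = 0.000542) and was called in all 6 fits without 1 array. Perp, a desmosomal membrane protein, rose by 0.47 (adjusted p = 0.0158), and its call was lost without lox/lox replicate 3 (adjusted p = 0.0514). Dsg2, a desmosomal cadherin, fell by 0.51 (adjusted p = 0.0238) and Dsp, desmoplakin, by 0.36 (adjusted p = 0.0374). Their calls were lost without wt/wt replicate 2, wt/wt replicate 3, lox/lox replicate 1 or lox/lox replicate 2, and that of Dsp also without lox/lox replicate 3, with adjusted p-values of up to 0.105 for Dsg2 and 0.155 for Dsp. Without wt/wt replicate 2 and lox/lox replicate 3 together, Perp, Dsg2 and Dsp were not called (adjusted p = 0.0756, 0.11 and 0.152).

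Of 17 measured regulators of epithelial and mesenchymal state 3 rose and 3 fell, beside 2.55% and 3.61% of all genes. Elf3, an epithelial ETS factor, fell by 2.00 (SE 0.12, adjusted p = 1.84e-05 in limma), from 8.12 to 8.28 on the wt/wt arrays to 5.91 to 6.36 on the lox/lox arrays. Grhl3, a grainyhead factor of barrier epithelia, fell by 0.95 (SE 0.09, adjusted p = 0.000337). Esrp1, an epithelial splicing factor, rose by 0.78 (SE 0.12, adjusted p = 0.0036), and Snai1, a Snail repressor, rose by 0.55 (SE 0.09, adjusted p = 0.0064). The other called genes of the list were Zeb1, a zinc finger repressor, which fell by 0.41 (adjusted p = 0.0153), and Grhl2, another grainyhead factor, which rose by 0.40 (adjusted p = 0.0424); both were named after their values were seen. Zeb1 lost its call when replicate 2 of either genotype was left out (adjusted p of up to 0.076). Grhl2 lost it without each single array except lox/lox replicate 1 (up to 0.129) and after cyclic loess (0.0522). Neither was called without wt/wt replicate 2 and lox/lox replicate 3 together (0.0764 and 0.196). Elf3, Grhl3, Esrp1 and Snai1 were called in every fit without 1 array, but Esrp1 and Snai1 were not called without wt/wt replicate 2 and lox/lox replicate 3 together (adjusted p = 0.0553 and 0.0714). Esrp1 and Grhl2 were each above the array median on 2 of the 6 arrays, and the filter on dim genes removed both.

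Cldnd1 and Cldnd2 carry a claudin domain in their names but were not counted as claudins. Cldnd1 differed by 0.23 (adjusted p = 0.195 in limma), with every lox/lox array above every wt/wt array, and Cldnd2 by 0.04 (adjusted p = 0.883).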
